A study of Mus musculus with 4 samples.

Results

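The 9 genes described here were C1qa, C1qb, C1qc, Tmem119, P2ry12, Cx3cr1, Csf1r, Trem2 and Aif1, chosen by symbol among the 19465 features measured. They are genes of microglia, the resident macrophages of the brain, and 3 of them encode the chains of the complement protein C1q. Expression was measured by Visium-FFPE, in which probes for known transcripts are counted as unique molecular identifiers (UMIs) in spots laid out over a fixed section. The 4 sections came from wild-type C57BL/6J male offspring at postnatal day 21, with 2 sections in each diet group. Mothers of the MF group (median folate in the labels) received a conventional amount of folic acid (FA), 2 mg/kg, and mothers of the HF group (high folate) an excess, 20 mg/kg. Both diets began before mating and lasted through pregnancy and lactation, so all 4 brains had been exposed to added FA and no section came from a diet without it. Sections of 1 group are biological replicates in the study's methods, and the labels do not say whether they came from separate litters, so the p-values below measure the spread between these sections. All 9 genes passed the filter on low counts in every comparison.

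Microglia enter the brain early in development and live from then on by signals through the receptor Csf1r. In the quiet state they carry Tmem119 on the surface, sense nucleotides leaking from other cells through P2ry12 and the neuronal chemokine fractalkine through Cx3cr1, and hold the cytoskeletal protein Aif1, also called Iba1. Trem2 is a lipid-sensing receptor that signals through the adaptor Tyrobp and is known for its part in the clearance of myelin and dying cells. C1q starts the classical complement cascade and in the young brain tags synapses for removal. In the postnatal weeks that end near the age studied here, tracts are being myelinated and microglia in white matter are known to be numerous and phagocytic.

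C1qb, C1qc and C1qa lie side by side on the minus strand of chromosome 4, in that order, between positions 136880129 and 136898803 of GRCm38, with 3616 and 2851 bases between neighbours. P2ry12 lies on chromosome 3 (59216272 to 59262871), Tmem119 on chromosome 5 (113793729 to 113800516) and Cx3cr1 on chromosome 9 (119901616 to 120069879). Chromosome 17 holds both Aif1 (35170991 to 35176068) and Trem2 (48346401 to 48354147). All are protein-coding genes, and the counts are probe counts of their transcripts.

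Promoter sequence of RefSeq (GRCm38.p6) was matched for 6 of the 9 genes. The 250 bases before the start site were searched on both strands for GAGGAA and AGGAAGT. These are purine-rich letters read by PU.1, the factor encoded by Spi1 that defines macrophages. The letters of both can overlap. GAGGAA was present in 4 of the 6 promoters (C1qb, C1qc, Aif1 and Trem2), against 23.3% of all 32851 promoters. AGGAAGT was present in 3 of the 6 (P2ry12, C1qb and C1qc), against 7.69% of all. A match is a description of the sequence, not a site of binding. The promoters of a C1q chain, a nucleotide receptor and the lipid receptor are printed 5′ to 3′ on the strand of the gene and end at the base before the start, with the matched letters in capitals (as their reverse complement where the match is on the other strand). They are chr4:136886201-136886450 (minus strand) for C1qb, chr3:59262986-59263235 (minus strand) for P2ry12 and chr17:48346151-48346400 (plus strand) for Trem2.
C1qb: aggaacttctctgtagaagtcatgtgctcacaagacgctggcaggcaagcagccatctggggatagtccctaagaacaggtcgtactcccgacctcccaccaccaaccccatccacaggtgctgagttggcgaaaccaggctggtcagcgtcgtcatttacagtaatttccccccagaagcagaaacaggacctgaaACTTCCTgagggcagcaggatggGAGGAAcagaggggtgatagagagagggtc
P2ry12: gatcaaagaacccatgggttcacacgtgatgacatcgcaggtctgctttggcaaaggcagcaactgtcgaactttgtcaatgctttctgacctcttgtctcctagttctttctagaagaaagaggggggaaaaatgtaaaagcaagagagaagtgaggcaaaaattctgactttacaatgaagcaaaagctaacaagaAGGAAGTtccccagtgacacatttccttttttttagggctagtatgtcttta
Trem2: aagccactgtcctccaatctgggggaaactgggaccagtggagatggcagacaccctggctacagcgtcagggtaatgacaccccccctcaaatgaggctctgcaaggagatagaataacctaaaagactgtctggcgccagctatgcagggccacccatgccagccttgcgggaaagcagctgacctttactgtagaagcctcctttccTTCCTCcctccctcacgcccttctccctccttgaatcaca
In C1qb, GAGGAA lay 30 to 25 bases before the start and AGGAAGT, on the other strand, 53 to 47 bases before it. P2ry12 had AGGAAGT at nearly the same distance, 52 to 46 bases before its start. Trem2 had GAGGAA on the other strand, 40 to 35 bases before the start.

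The sections held 3197 to 3598 spots after filtering and 34983708 to 90098381 UMIs, with MF replicate 1 the deepest and HF replicate 1 the shallowest. A spot covers several cells, so fewer microglia and less RNA per microglia cannot be told apart. Levels are given as CPM, the UMIs of a gene in an area scaled to a common total of UMIs, and are compared between areas and sections of 1 gene only, since probes differ between genes. Spots were clustered without the 9 genes, and clusters were named by area from markers. White matter was formed by 2 of the 23 clusters, one with Mal, Gsn and Mag and one with Thbs4, Hist1h3c, Hist1h3b and Ccdc153 among the leading genes, with 245 to 382 spots a section. Grey matter was the sum of cortex, hippocampus, thalamus, hypothalamus and striatum. The summed CPM of 8 oligodendrocyte genes was 72452 to 91545 in white matter and 15794 to 20934 in grey matter.

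White matter held more of every one of the 9 transcripts per UMI than grey matter, in each of the 4 sections. For all 9 the lowest white matter section lay above the highest grey matter section, as it did for 17.4% of the 14090 features tested. C1qa, the most abundant of the C1q chains by UMIs, reached 130 and 132 CPM in the white matter of MF replicates 1 and 2 and 92.4 and 148 CPM in HF replicates 1 and 2. In grey matter the same sections held 89.5, 86.2, 73.2 and 81.2 CPM of C1qa. The areas did not overlap, although the white matter of HF replicate 1 lay only just above the grey matter of MF replicate 1. For C1qb the white matter values were 70.5, 74.1, 65.9 and 69.5 CPM and the grey matter values 48.0, 51.6, 49.5 and 40.7 CPM. C1qc stood at 95.8, 99.7, 89.6 and 115 CPM in white matter and at 63.7, 66.3, 62.3 and 62.1 CPM in grey matter. For these 2 chains every white matter value lay well above every grey matter value. The ratio of white to grey matter, averaged over sections, was 1.52 ± 0.232 for C1qa, 1.49 ± 0.159 for C1qb and 1.57 ± 0.187 for C1qc (SD, n = 4).

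The receptors of resting microglia followed the same pattern. P2ry12 stood at 80.0, 89.8, 80.0 and 79.9 CPM in white matter of MF replicates 1 and 2 and HF replicates 1 and 2, and at 54.0, 60.2, 61.1 and 49.0 CPM in grey matter. Cx3cr1 stood at 44.4, 52.9, 49.6 and 52.9 CPM in white matter and at 32.7, 36.5, 39.0 and 32.2 CPM in grey matter. For both receptors the lowest white matter value exceeded the highest grey matter value. Csf1r, the receptor on which the survival of microglia depends (chromosome 18, 61100598 to 61132149), measured 62.4, 51.1, 72.1 and 67.2 CPM in white matter against 41.4, 40.3, 43.7 and 38.7 CPM in grey matter. Tmem119 was the least counted, with 347 to 717 UMIs in a whole section. It measured 11.6, 11.6, 21.4 and 12.998 CPM in white matter and 7.26, 7.38, 11.1 and 8.70 CPM in grey matter. HF replicate 1 was high for Tmem119 in both areas.

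Trem2 and Aif1 were also counted sparsely. Trem2 measured 14.5, 14.2, 19.7 and 21.2 CPM in white matter and 12.5, 11.2, 11.1 and 12.1 CPM in grey matter. Both HF sections were high in white matter. White over grey matter, Trem2 thus had a ratio of CPM of 1.16 and 1.27 in MF replicates 1 and 2 and of 1.78 and 1.76 in HF replicates 1 and 2. As UMIs per spot, the Trem2 ratios were 1.13 and 1.07 in MF replicates 1 and 2. In HF replicates 1 and 2 they were 1.03 and 1.66, so the diets overlapped on that scale. Aif1 measured 17.3, 20.7, 22.0 and 22.1 CPM in white matter and 11.9, 12.8, 13.7 and 14.96 CPM in grey matter, without overlap.

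**Figure D1:**
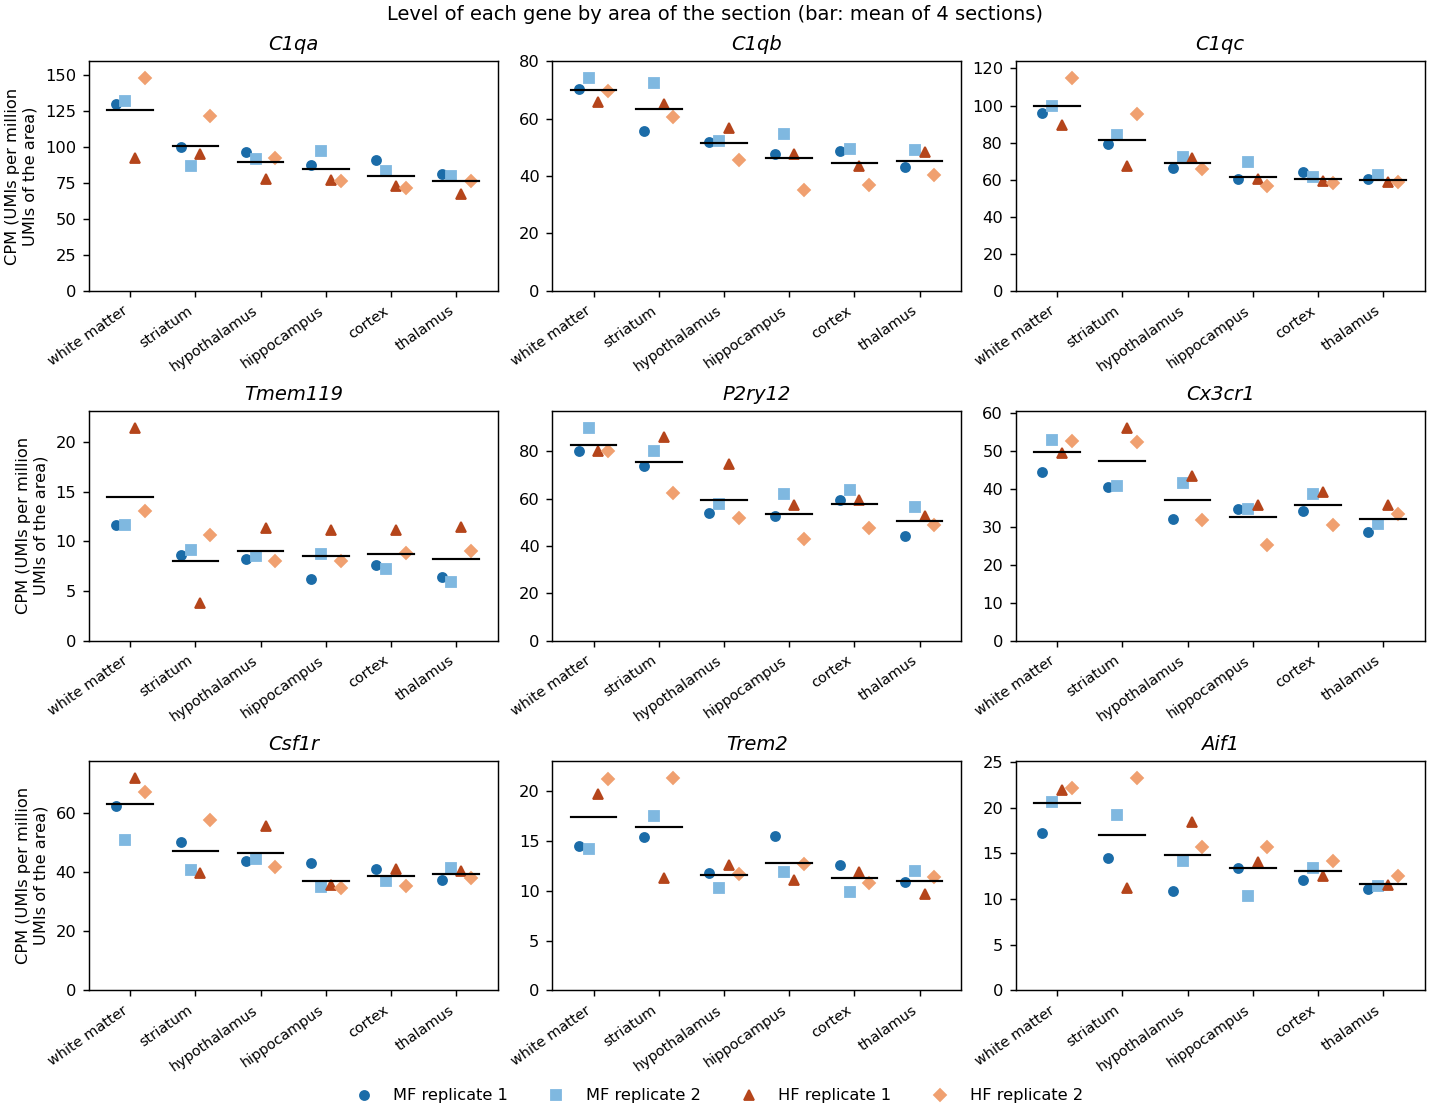
CPM of each of the 9 genes (y axis, from 0) in white matter and 5 grey areas (x axis), with 1 point for each section and a bar at the mean of 4 sections. White matter has the highest mean for all 9 genes, and its points overlap those of the striatum for every gene but Tmem119.

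With section as a block, all 9 genes were called higher in white matter by the quasi-likelihood test of edgeR (Benjamini-Hochberg adjusted p under 0.05 and at least 1.2-fold). Of 14090 features tested, 23.3% were called higher. The log2 ratios of white to grey matter lay in a narrow range, from 0.57 ± 0.12 (SE) for Trem2 to 0.77 ± 0.12 for Tmem119. C1qa stood at 0.69 ± 0.06, C1qb at 0.65 ± 0.06, C1qc at 0.73 ± 0.06, P2ry12 at 0.65 ± 0.06, Cx3cr1 at 0.59 ± 0.07, Csf1r at 0.68 ± 0.07 and Aif1 at 0.67 ± 0.09. Adjusted p ran from 1.85e-09 to 0.000426. The median of the 9 log2 ratios was 0.67, against -0.0018 over all features tested.

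The scale mattered, because white matter spots held fewer UMIs in all. White over grey matter, the UMIs of all genes per spot were 0.9746 and 0.843 in MF replicates 1 and 2 and 0.579 and 0.946 in HF replicates 1 and 2. Counted as UMIs per spot, the 9 genes were higher in white matter in both MF sections and in HF replicate 2, at 1.07 to 1.75 times grey matter. In HF replicate 1 only Tmem119 (1.12) and Trem2 (1.03) were above grey matter, and C1qa was lowest of the 9 at 0.732. On this scale edgeR called none of the 9, with 1 of them (Tmem119) at an unadjusted p under 0.05. Of all 14090 features it called 1054 higher and 4301 lower, with 6757 at an unadjusted p under 0.05. The log2 ratios of the 9 were 0.24 to 0.44, where the median of all features was -0.33. Spots of like depth were those between the quartiles of the white matter spots of their own section. Among them all 9 were called again, at log2 ratios of 0.43 (Cx3cr1) to 0.72 (C1qc). There 2662 of 12571 features were called higher. Both of these choices were made after seeing the data.

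**Figure D2:**
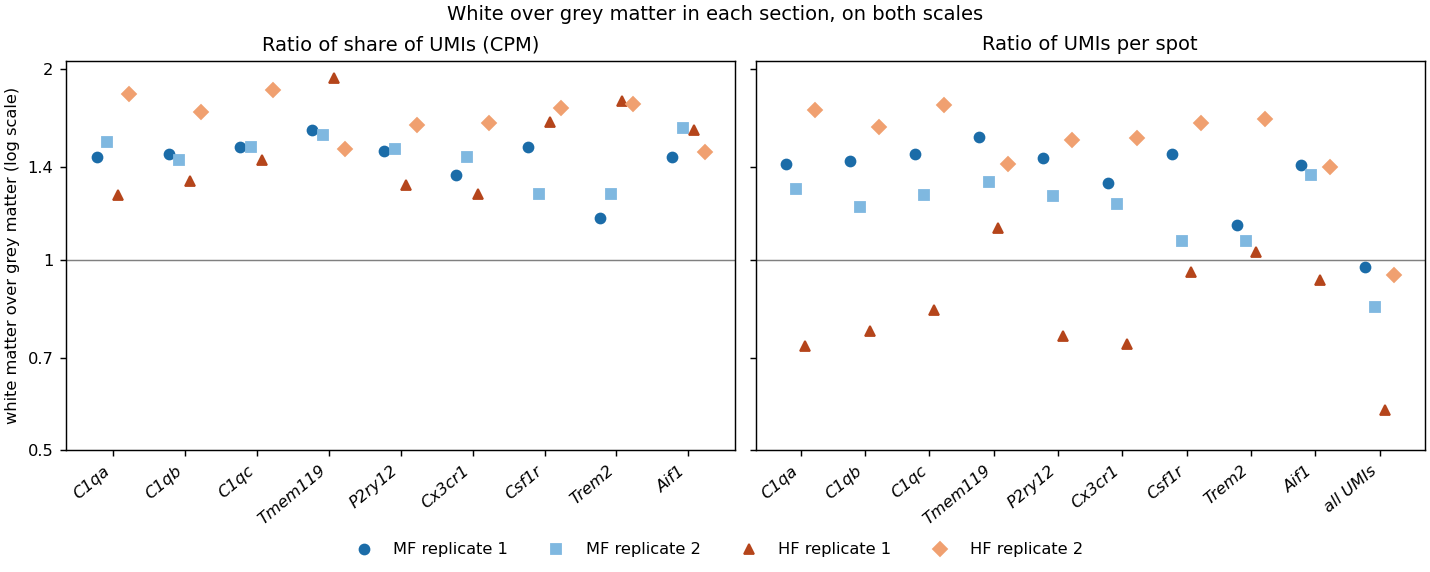
Ratio of white to grey matter (y axis, log scale) for each gene in each section, as a ratio of CPM (left) and of UMIs per spot (right, with the UMIs of all genes). All CPM ratios lie above 1, and on the right HF replicate 1 lies below 1 for 7 of the 9 genes.

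Macrophages at the borders of the brain share C1q, Csf1r, Cx3cr1 and Aif1 with microglia. The summed CPM of 8 border macrophage markers was 27.5 to 36.6 in white matter and 20.5 to 29.99 in grey matter. Of the 7 that could be tested, only Stab1 was called higher in white matter, at a log2 ratio of 0.57 ± 0.11, and Mrc1 stood at 4.87 ± 1.59 CPM in white and 4.24 ± 0.745 CPM in grey matter (SD, n = 4). Lyve1 was at 0.0933 ± 0.123 CPM in white matter. Markers of blood leukocytes summed to 2.82 to 5.99 CPM in white and 1.85 to 3.17 CPM in grey matter, and 1 of these, Itgal, could be tested and was called higher in white matter at a log2 ratio of 1.248. Their part in the result was not tested.

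In CPM, white matter was not where the 9 genes peaked. Summed over the 9 genes, the highest level stood in an unnamed cluster led by Dio2, Ndnf, Reln and Ptgds, at 731 ± 48.9 CPM (SD, n = 4), followed by the surface cluster led by Ptgds, Eln and Acta2 at 725 ± 68.1 CPM. A hippocampal cluster led by Cabp7, Gm2115, Thbs4 and Ddn followed at 607 ± 32.5 CPM. The white matter clusters came next, at 565 ± 64.3 CPM for the one led by Mal and 510 ± 28.7 CPM for the one led by Thbs4 and Hist1h3c. All 9 genes were above their whole-section level in each of these 5 clusters. At the other end were the hippocampal clusters led by Fibcd1 and Spink8, at 229 ± 32.1 CPM, and by Neurod6 and Homer3, genes of pyramidal neurons, at 177 ± 29.8 CPM.

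This order ran against the total number of UMIs. The unnamed cluster led by Dio2 held 5672 UMIs of all genes per spot and the cluster led by Neurod6 held 32153, as means of 4 sections. Counted as UMIs per spot, the 9 genes together came to 4.22 in the cluster led by Dio2, the lowest of the 23 clusters. They came to 6.36 in the hippocampal cluster led by Cabp7 and 5.84 in that led by Neurod6. The wide gap in CPM between this pair was thus small per spot. Across the 23 clusters, Spearman's rho of the summed CPM with the UMIs per spot was -0.716 and -0.802 in MF replicates 1 and 2 and -0.833 and -0.551 in HF replicates 1 and 2. For the UMIs of the 9 genes per spot, rho with the same total was 0.663 and 0.442 in MF replicates 1 and 2. In HF replicates 1 and 2 it was 0.773 and 0.445. The clusters share their libraries, so these are descriptions without a test. White matter and the surface lay above other clusters of like depth. At 12840 to 15204 UMIs per spot these 3 clusters held 510 to 725 CPM, where the cortical clusters led by Lamp5 and by Myl4, at 14953 and 15152 UMIs per spot, held 358 ± 28.1 and 340 ± 40.5 CPM.

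**Figure D3:**
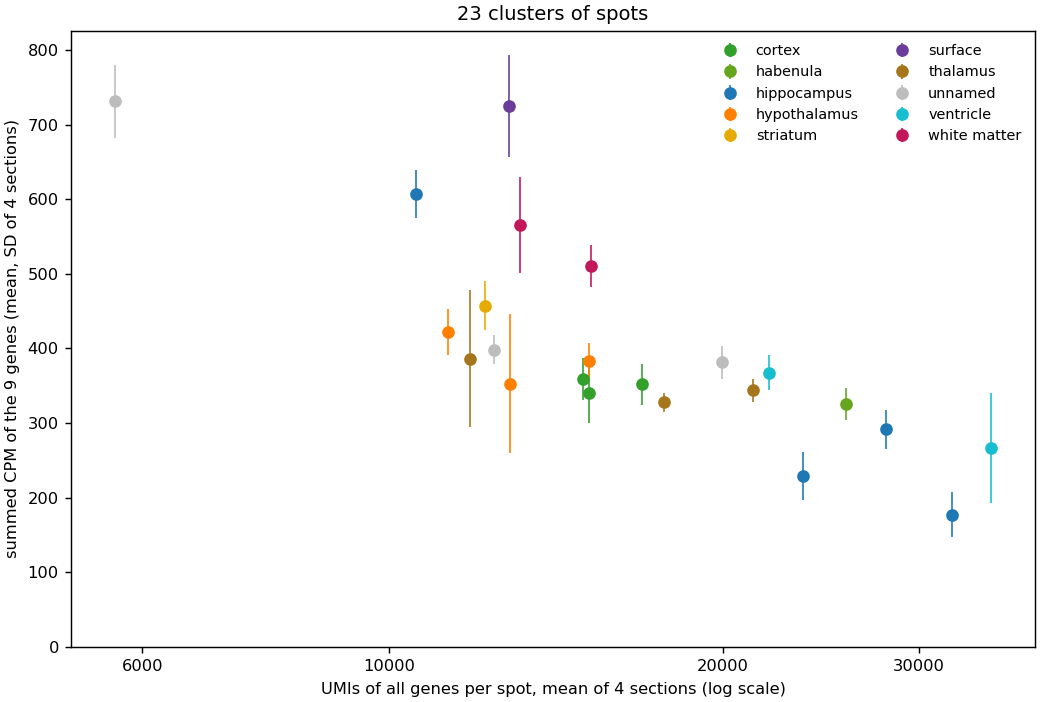
Summed CPM of the 9 genes (y axis, mean and SD of 4 sections) against the UMIs of all genes per spot (x axis, log scale) in 23 clusters, coloured by area. CPM tends to fall as UMIs per spot rise, with scatter, since clusters at 11298 to 12856 UMIs per spot hold 353 to 725 CPM. The white matter and surface clusters lie above others at the same depth.

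At the surface, which includes meninges, the 9 genes were high, and so were markers of border macrophages. C1qa measured 176, 181, 146 and 184 CPM there in MF replicates 1 and 2 and HF replicates 1 and 2, all above the grey matter values of the same sections. P2ry12, which border macrophages are known to lack, measured 62.2, 120, 84.2 and 93.6 CPM, also above grey matter in each section. The border macrophage markers summed to 165 to 309 CPM at the surface, the highest of the areas summed, and Mrc1 stood at 52.5 ± 13.1 CPM. How much of the level at the surface came from either cell type was not tested. In the choroid plexus cluster led by Ttr, of only 8 or more spots a section, the 9 genes summed to 267 ± 73.5 CPM. As UMIs per spot they came to 9.29 there, against 9.08 at the surface.

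The level was lower within a short distance of white matter. The 9 genes together held 543 ± 33.1 CPM in white matter spots, 420 ± 35.8 CPM in spots 1 step away and 341 ± 26.8 CPM 2 steps away (SD, n = 4). From there the level returned to 399 ± 23.8 CPM at 3 steps and was 374 ± 18.5 CPM at 5 or more. The order of 0, 1 and 2 steps held in all 4 sections. Spots 2 steps away held 11626 to 28175 UMIs of all genes per spot, against 7245 to 25179 in white matter, and the share of this in the profile was not tested.

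**Figure D4:**
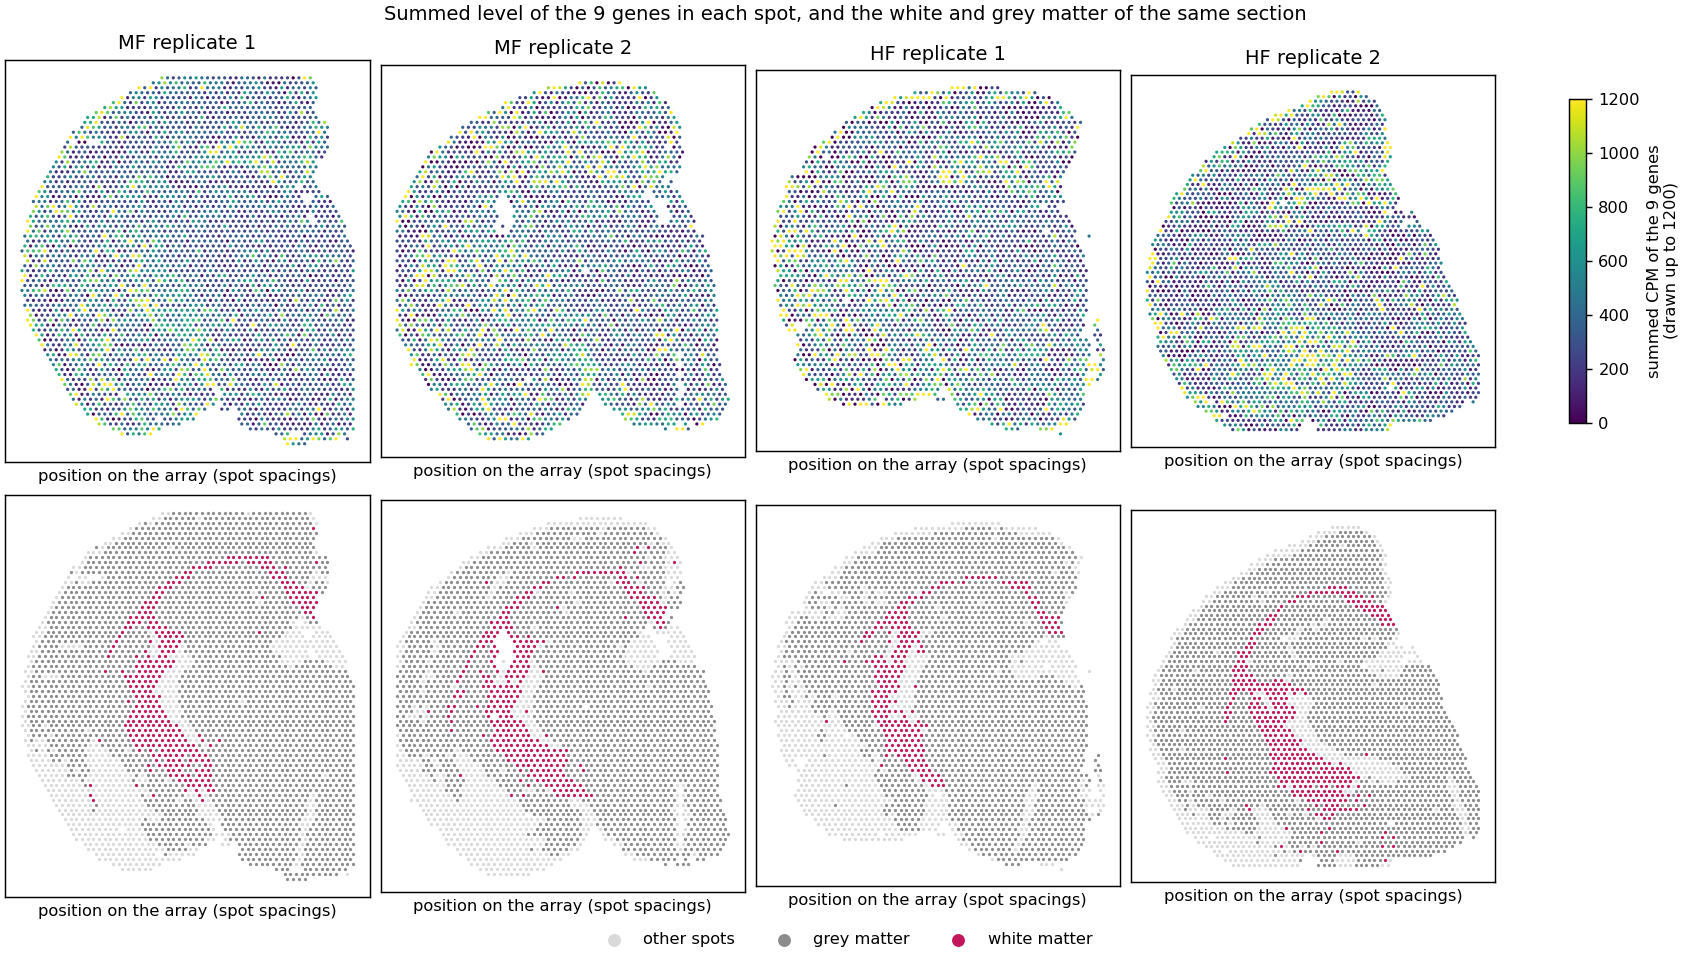
Each spot of the 4 sections at its position on the array, coloured by the summed CPM of the 9 genes (top) and by white matter, grey matter or other spots (bottom). Spots with high values are scattered over each section, and the level over all white matter spots is 543 CPM against 360 CPM in grey matter (means of 4 sections).

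Among the 6 areas, white matter had the highest mean for all 9 genes, and it was the highest area in all 4 sections for C1qb, C1qc, Tmem119 and Csf1r. It came first in 3 sections for C1qa, P2ry12, Cx3cr1 and Aif1 and in 1 section for Trem2. The striatum, crossed by myelinated bundles, was next for every gene but Tmem119. The values of white matter and striatum overlapped for every gene but Tmem119. For Trem2 the striatum, at 16.4 ± 4.21 CPM (SD, n = 4), could not be separated from white matter at 17.4 ± 3.59 CPM, and for Cx3cr1 the pair stood at 47.5 ± 7.96 and 49.95 ± 3.99 CPM. The summed CPM of the oligodendrocyte genes in the striatum was 25532 to 32639, against 15794 to 20934 in grey matter as a whole. In the thalamus it was 23232 to 29541, overlapping the striatum, and the part of myelin in the order of areas was not tested. The thalamus had the lowest mean for C1qa (76.4 ± 6.26 CPM), C1qc, P2ry12, Cx3cr1, Trem2 and Aif1. Cortex, hippocampus and thalamus lay within their spread of each other for C1qb (44.6 to 46.3 CPM) and C1qc (60.1 to 61.6 CPM). Across the 5 grey areas 7 of the 9 genes differed in the test of edgeR, but so did 78.6% of all 13584 features. The 2 that did not pass were Tmem119 (adjusted p = 0.821) and Aif1 (adjusted p = 0.0514). Between the highest and the lowest grey area the fitted log2 range ran from 0.16 for Tmem119 to 0.63 for Trem2.

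The 3 chains of C1q, which assemble in equal numbers in the protein, took similar shares of the C1q UMIs in white matter, grey matter and the surface. C1qa took 42.2 ± 3.33% in white matter and 42.6 ± 2.26% in grey matter, C1qb 23.9 ± 2.33% and 24.5 ± 1.98%, and C1qc 33.9 ± 1.78% and 32.9 ± 0.995% (SD, n = 4). At the surface the shares were 40.1 ± 5.04%, 26.1 ± 5.25% and 33.9 ± 2.04%. Each chain differed between these areas by less than the larger of the SDs compared. Within sections, C1qc took a slightly larger share in white than in grey matter in all 4, and C1qb a slightly smaller one. This paired difference was not tested. In HF replicate 1 C1qa took 39.0% of the C1q UMIs of the whole section, below the other 3 sections, and C1qb took 27.0%, above them. The shares depend on the probes of each gene and are no measure of the protein.

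Detection in single spots differed widely between the genes. At full depth C1qa had at least 1 UMI in 51.3% to 85.2% of spots and Tmem119 in 9.75% to 17.3%, and at least 1 of the 9 genes had a UMI in 92.2% to 99.3%. Thinned to 5000 UMIs a spot, the shares were 29.96% to 38.9% for C1qa and 3.59% to 5.92% for Tmem119. In HF replicate 1 only 2687 of 3197 spots had enough UMIs to enter, against 3589 of 3598 and 3216 of 3314 in MF replicates 1 and 2 and 3218 of 3343 in HF replicate 2. Thinned shares of spots with C1qa were 49.6%, 46.2%, 31.9% and 44.7% in the white matter of MF replicates 1 and 2 and HF replicates 1 and 2, and 36.9%, 33.6%, 29.9% and 33.1% in grey matter. Moran's I, a score of how far neighbouring spots resemble each other, was modest for all 9 genes in the authors' tables. It was at most 0.0771 for C1qa in HF replicate 2 and at most 0.00552 for Tmem119. Against features of like count in the same section, C1qa lay above 51.2% to 78.8% of them and Tmem119 above 8.97% to 34.6%.

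The features whose pattern over the 23 clusters was most like the mean of the 9 genes were found by Pearson's r of log2(CPM + 1) over clusters, averaged over 4 sections, among 10350 other features with a mean of at least 10 CPM. Pld4, a microglial gene named for the phospholipase D family, came first (r = 0.940). S1pr1 (0.917), a lipid receptor known mainly from astrocytes and endothelium, Fcgr3 (0.906), Selplg (0.905) and Inpp5d (0.903) followed. Cd53, Mpeg1, Slco2b1 and Laptm5 were also among the 10 most alike, at 0.896 to 0.902. Among the 9 genes themselves, r with the mean of the other 8 ran from 0.795 (Csf1r) to 0.980 (C1qa). These correlations share libraries and depth and carry no test. All clusters counted equally, also those with few spots in a section. The cluster led by Gbx2, Tcf7l2 and Grid2ip held 3 spots in HF replicate 1, and that led by Agrp held 5 in HF replicate 2.

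Other genes of microglia were higher in white matter per UMI too. Of 27 further microglial genes tested, 24 were called higher and none lower, with a median log2 ratio of 0.68. Of all 14090 features, 23.3% were called higher. The related genes are given relative to total UMIs alone, and not as UMIs per spot, where none of the 9 genes was called. Sall1, a transcription factor of microglia, stood at 53.5 ± 5.01 CPM in white and 20.0 ± 1.13 CPM in grey matter (log2 ratio 1.47 ± 0.06). The lysosomal proteases Lgmn (0.89 ± 0.04) and Ctss (0.85 ± 0.06) and the adhesion ligand Selplg (0.78 ± 0.06) had the next smallest p. Of the ligands and adaptors of the 9 genes, the Trem2 adaptor Tyrobp (0.66 ± 0.10), the Csf1r ligand Csf1 (1.12 ± 0.19), Clu (0.40 ± 0.05) and Tgfb1 were called higher. The other Csf1r ligand, Il34, known as a product of neurons, was called lower, at 49.2 ± 9.25 CPM in white and 68.3 ± 4.73 CPM in grey matter. Apoe passed the adjusted p at a log2 ratio of 0.26, short of 1.2-fold.

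Later steps of the complement cascade were thinly measured. Of 9 complement components tested, C4b, which acts just after C1q, was called higher in white matter at 24.4 ± 2.39 against 9.78 ± 0.909 CPM (log2 ratio 1.38 ± 0.09), and so was Masp1 (0.63 ± 0.09). None was called lower. C3, the hub of the cascade, was at 0.681 ± 0.355 CPM in white and 0.573 ± 0.342 CPM in grey matter and was not called. Of 14 receptors and regulators, 4 were called higher, among them C3ar1, C5ar1 and Itgb2, and 4 lower. The lower ones with the smallest p were the neuronal proteins Susd4 (-0.46 ± 0.05) and Sez6 (-0.38 ± 0.05). C5ar1 stood at only 1.28 ± 0.298 CPM in white matter. Of all 14090 features tested, 3279 (23.3%) were called higher and 2982 lower. The higher calls among the components and among the receptors and regulators came near that share. Of 13 genes of the phagocytic or myelin-associated state, 8 were called higher, among them Cd9 (1.91 ± 0.05), which oligodendrocytes also express, Fabp5 (0.72 ± 0.05) and Cd52 (1.06 ± 0.16). Igf1 (-0.87 ± 0.11) and Lpl were called lower. Spp1 was called higher, but its white matter values were 14.5 and 7.75 CPM in MF replicates 1 and 2 and 6.76 and 46.6 CPM in HF replicates 1 and 2, so HF replicate 2 decided its mean.

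The comparison of HF with MF addressed whether high maternal FA changed these genes in the brains of the offspring. Over whole sections none of the 9 genes was called, with 1 of them (Tmem119) at an unadjusted p under 0.05 in edgeR and none called by DESeq2. Of all 14971 features edgeR called 0% and DESeq2 called 23, and 1020 had an unadjusted p under 0.05. Tmem119 measured 8.00 and 8.20 CPM in MF replicates 1 and 2 and 11.8 and 9.16 CPM in HF replicates 1 and 2, without overlap. Its log2 fold change was 0.37 (95% interval 0.01 to 0.72, adjusted p = 0.721). Aif1 measured 12.8 and 14.2 CPM in MF and 14.5 and 16.6 CPM in HF, without overlap, at a log2 fold change of 0.20 (-0.09 to 0.49). C1qa, at 96.8 and 94.3 CPM in MF and 78.3 and 93.9 CPM in HF, lay in the other direction at -0.16 (-0.41 to 0.10), with the MF and HF values of replicate 2 nearly equal. For C1qb, C1qc, P2ry12, Cx3cr1, Csf1r and Trem2 the groups overlapped, and 39.6% of all features did not overlap between the groups. Their log2 fold changes were -0.12, -0.04, -0.09, 0.07, 0.00 and 0.04, and the widest interval among them, that of Trem2, ran from -0.25 to 0.32.

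Leaving out single sections moved this comparison. Without HF replicate 2, C1qa was called lower (log2 fold change -0.31, adjusted p = 0.0126 in edgeR) and Tmem119 higher (0.53, adjusted p = 0.0178), where 5.55% of 15130 features were called in either direction. Without HF replicate 1, 7.68% of 15179 features were called, none of them among the 9. In each of these fits the HF arm rests on 1 section, assumed to vary like the others. Beside these values, the summed CPM of some other cell types did not overlap between the diets over whole sections, where 39.6% of single features did not. Oligodendrocyte genes summed to 25694 to 26846 CPM in MF and 21369 to 22863 CPM in HF, astrocyte genes to 1292 to 1312 and 1172 to 1194 CPM, and blood leukocyte genes to 3.09 to 3.77 and 2.14 to 2.86 CPM. Border macrophage genes overlapped, at 31.2 to 32.3 CPM in MF and 28.5 to 38.1 CPM in HF. Neuron genes overlapped too, at 5705 to 5986 CPM in MF and 5714 to 5771 CPM in HF. So did endothelium genes, at 237 to 252 CPM in MF and 242 to 294 CPM in HF. Within white matter the oligodendrocyte genes overlapped, at 78082 to 91545 CPM in MF and 72452 to 88949 CPM in HF. White matter held 345 and 342 spots in MF replicates 1 and 2 and 245 and 382 in HF replicates 1 and 2. The part of area make-up and of these cell types in the diet values of the 9 genes was not tested.

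**Figure D5:**
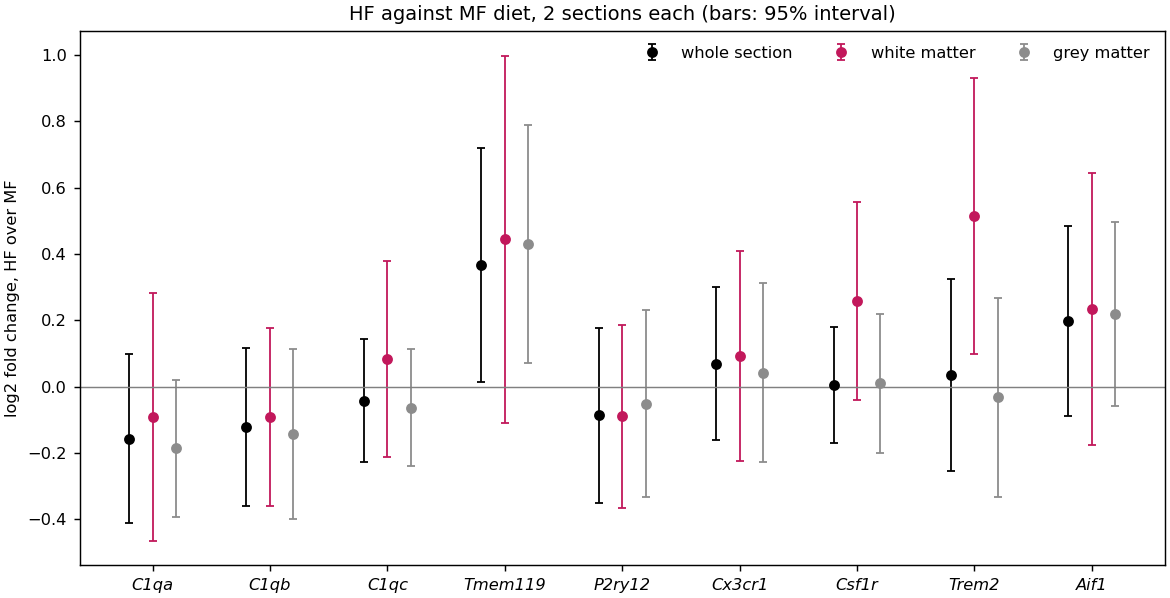
Log2 fold change of HF over MF (y axis) for each of the 9 genes (x axis) over whole sections, in white matter and in grey matter, with 95% intervals of the edgeR fit. No gene is called in any of the 3, and the intervals of Tmem119 are among the widest.

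Within areas none of the 9 genes was called by edgeR or by DESeq2 either. In edgeR 3 of them were at an unadjusted p under 0.05 in cortex. In white matter, grey matter, hippocampus, thalamus, hypothalamus and striatum it was 1 each. Of all features, edgeR had 1068 of 13188 at that level in cortex and 972 of 12435 in hippocampus. It had 719 of 11140 in striatum and 577 of 12732 in white matter. DESeq2 called 19 features in cortex, 23 in hippocampus and 1 in striatum. In the cortex, where 0.114% of 13188 features were called, C1qa stood at 91.3 and 83.4 CPM in MF replicates 1 and 2 and at 73.0 and 71.7 CPM in HF replicates 1 and 2. C1qb stood at 48.6 and 49.6 CPM in MF and at 43.5 and 36.8 CPM in HF. The groups did not overlap for either chain, nor for C1qc and Tmem119, as for 37.6% of all features tested there, and the log2 fold changes were -0.27 for C1qa (adjusted p = 0.52 in edgeR) and -0.29 for C1qb (adjusted p = 0.55). Without HF replicate 1, C1qa, C1qb and P2ry12 were called lower in the cortex, where that fit called 6.19% of 13573 features in either direction. The summed CPM of oligodendrocyte genes in the cortex was also lower in HF (9528 and 10775) than in MF (12558 and 12611), as was that of astrocyte genes (845 and 874 against 969 and 996). In the hippocampus, where 0.0161% of 12435 features were called, all 3 chains again lay lower in both HF sections (37% of features did not overlap there), and C1qa had a log2 fold change of -0.25 (adjusted p = 0.599). Without HF replicate 1, C1qb was called lower there, in a fit that called 3.93% of 12816 features. Hippocampal oligodendrocyte genes summed to 14850 and 16218 CPM in MF and 10307 and 11476 CPM in HF, and astrocyte genes to 1252 and 1302 CPM in MF and 1133 and 1174 CPM in HF. The part of these cell types in the values of the C1q chains was not tested. In all of grey matter, where edgeR called 0% of 14634 features and DESeq2 called 11, with 895 at an unadjusted p under 0.05, C1qa stood at -0.19 and C1qb at -0.14. Without HF replicate 1, C1qb was called lower in grey matter, where that fit called 10.5% of 14832 features. Without HF replicate 2, C1qa was called lower and Tmem119 higher, where 5.94% of 14809 features were called.

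Tmem119 lay higher in both HF sections in white matter, grey matter, cortex and thalamus, where 32.9% to 38.3% of features did not overlap between the groups. In the thalamus it measured 6.44 and 5.92 CPM in MF replicates 1 and 2 and 11.5 and 8.98 CPM in HF replicates 1 and 2, from 59 to 118 UMIs a section. Its log2 fold change there was 0.72 (95% interval 0.27 to 1.18, adjusted p = 0.572 in edgeR). The make-up of the area differed between sections. The thalamic cluster led by Gbx2, Tcf7l2 and Grid2ip held 124 and 79 spots in MF replicates 1 and 2. It held 3 and 167 in HF replicates 1 and 2. The one led by Gbx2, Calb2 and Slitrk6 held 121, 173, 381 and 104 spots in the same order. How far this make-up entered the diet values was not tested. In the thalamus edgeR called 0% of 13373 features and DESeq2 called 6, with 952 at an unadjusted p under 0.05. Without HF replicate 2, Tmem119 was called higher and C1qa lower in the thalamus, in a fit that called 9.72% of 13614 features. In the hypothalamus, where 0% of 13368 features were called by edgeR and 5 by DESeq2, with 820 at an unadjusted p under 0.05, only Aif1 did not overlap, against 37.5% of features. It measured 10.9 and 14.2 CPM in MF and 18.4 and 15.7 CPM in HF (log2 fold change 0.45, adjusted p = 0.788 in edgeR). The hypothalamic cluster led by Agrp, Ghrh and Pomc held 254 and 148 spots in MF replicates 1 and 2. In HF replicates 1 and 2 it held 125 and 5, and its part in the diet values was not tested. In the striatum, with 0.0628% of 11140 features called, only Cx3cr1 did not overlap (35.2% of features did not), at 40.7 and 40.8 CPM in MF and 56.2 and 52.4 CPM in HF (0.40, adjusted p = 0.764).

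In white matter the groups did not overlap for 6 of the 9 genes, and they did not for 32.9% of the 12732 features tested, of which edgeR called 0.00785% and DESeq2 called 3. Tmem119, Csf1r, Trem2 and Aif1 lay higher in HF, and C1qb and P2ry12 lower. Trem2 had the smallest p, with a log2 fold change of 0.51 (95% interval 0.10 to 0.93, adjusted p = 0.983). For P2ry12 MF replicate 1 and both HF sections were nearly equal, at 80.0, 80.0 and 79.9 CPM.

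Whether the diet difference itself differed between white and grey matter was tested as an interaction. None of the 9 genes was called, with 2 of them (Trem2 and Csf1r) at an unadjusted p under 0.05, and edgeR called 0% of all 14497 features, with 434 at an unadjusted p under 0.05. DESeq2 called 0, with 36 at an unadjusted p under 0.05. Trem2 had the largest difference of the 9, at 0.54 on the log2 scale (adjusted p = 1.0). The value was 0.45 to 0.59 when single sections were left out, 0.33 with white matter taken as the top 10% of spots by myelin markers and 0.37 among spots of like depth. Csf1r followed at 0.26, and the other 7 genes lay between -0.01 and 0.15. As UMIs per spot, the white to grey ratios of Trem2 overlapped between the diets. They were 1.13 and 1.07 in MF replicates 1 and 2 and 1.03 and 1.66 in HF replicates 1 and 2. Tyrobp, the adaptor of Trem2, measured 22.9 and 23.8 CPM in white matter of MF replicates 1 and 2 and 28.7 and 30.1 CPM in HF replicates 1 and 2, against 17.9 and 18.1 CPM in MF and 15.8 and 15.5 CPM in HF in grey matter. Its difference was 0.54 (adjusted p = 1.0), short of a call like that of Trem2.

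The related genes gave no call for diet either. Over whole sections none of the 28 other microglial genes was called, with 0 at an unadjusted p under 0.05 in edgeR, and their median log2 fold change was -0.04. None of 9 complement components, 14 receptors and regulators and 16 genes of the phagocytic state was called, with 1 of each list at an unadjusted p under 0.05. Among them C3ar1, the receptor of the complement fragment C3a, measured 5.12 and 5.59 CPM in MF replicates 1 and 2 and 3.49 and 3.55 CPM in HF replicates 1 and 2 (log2 fold change -0.61, adjusted p = 0.696).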

How the data were processed

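Visium-FFPE libraries of 4 sections were analysed. The authors aligned probe reads to mm10 with Space Ranger 2.0.0, per the labels and file headers, and deposited whole-number UMI counts per feature and spot, 1 table a section. The deposited Moran's I is a score of Space Ranger for each feature. Spots with at least 500 UMIs and 250 genes were kept, clustered (scanpy 1.11.5, Leiden) without the 9 genes and named from markers. UMIs were summed per section and area, since spots are not replicates, and tested with edgeR 4.0.16 (TMM, filterByExpr, quasi-likelihood, Benjamini-Hochberg over all features), tested first on simulated data. Called means an adjusted p under 0.05 and at least 1.2-fold. Depth per section limits precision, and intervals cover these sections alone. Gene positions are those of GENCODE release 21 of GRCm38. The members and gene lists were chosen with earlier results of these data known. Named were all 9 genes, the features among the 10 of most like pattern, and listed genes by smallest p. A few more genes were named after their values were seen (C3, Mrc1, Lyve1, Spp1, Apoe, Cd9 and Il34 among them). Alternatives were DESeq2 1.42.0, library size alone, no filter, spots thinned to 5000 UMIs, other clusters and areas, sections left out, a replicate block, the methods' Wilcoxon test over spots and, after seeing the data, UMIs per spot, spots of like depth and a crossed block. Images were not used, and a few genes are not reported here.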

Additional observations from a re-analysis of the deposited data

How the results depend on the processing

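White against grey matter, all 9 genes were called under 12 alternatives, at log2 ratios of 0.42 to 0.81. As UMIs per spot, where fewer UMIs per white matter spot enter the scale, 0 were called. That fit called 1054 of 14090 features higher. With sections left out, 9 to 9 were called. Features called for diet over whole sections were 0, with DESeq2 23, with no filter on low counts 5 and with sections left out 0 to 1166 (1 without MF replicate 2). With a replicate block 0 were called, and the replicate numbers did not pair the sections (r = -0.20 over 10201 features). The crossed replicate block called 11. Of the 9 genes, sections left out gave 0 to 2 calls for diet over whole sections, 0 to 2 in grey matter, 0 to 3 in cortex, 0 to 1 in hippocampus, 0 to 2 in thalamus, and 4 to 8 for the difference among grey areas. Among grey areas those fits called 10039 to 10507 features, of 13526 to 13725 tested. For diet, an arm left with 1 section was assumed to vary like the other. The Wilcoxon test over single spots, which are not replicates, called 2 in cortex (C1qa and C1qb lower), and over thinned spots 0. The share of all features called by that test is not given here.

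Signs turned for values that were not called. For diet over whole sections Csf1r was -0.0020 with no filter and -0.047 thinned. With sections left out, C1qc ran from -0.10 to 0.014, P2ry12 from -0.20 to 0.025, Cx3cr1 from -0.0083 to 0.15, Csf1r from -0.015 to 0.021 and Trem2 from -0.087 to 0.14. For the difference of diet between white and grey matter, thinning gave C1qa -0.017, C1qb -0.042, Tmem119 -0.40 and P2ry12 0.21. White matter as the top 10% of myelin markers gave C1qa -0.081 and C1qc -0.014. Interior spots gave Tmem119 -0.061 and Aif1 0.011, spots of like depth Tmem119 -0.052, P2ry12 0.072 and Aif1 0.12, library size alone P2ry12 0.0079 and Aif1 0.0066, and the coarser clustering P2ry12 0.016 and Aif1 0.011. With sections left out this difference ran from -0.23 to 0.28 for C1qa, -0.13 to 0.22 for C1qb, -0.064 to 0.29 for C1qc, -0.10 to 0.28 for Tmem119, -0.18 to 0.12 for P2ry12, -0.13 to 0.22 for Cx3cr1 and -0.11 to 0.087 for Aif1. The cause was not tested.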
